A study of Homo sapiens with 24 samples.

Results

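The genes described here are 9 genes of intestinal identity and differentiation, chosen by gene symbol: the transcription factor genes CDX1, CDX2, GATA6 and HNF4A, and the colonocyte and epithelial surface or differentiation genes KRT20, MUC1, LGALS4, CEACAM5 and CEACAM6. All 9 were found among the 33113 genes of the count table, and all 9 were among the 19452 genes with a count in at least 1 of the 24 samples. RNA-seq was performed in 8 groups of 3 samples. HCT116 is a human colorectal adenocarcinoma epithelial line, and HCT116 oxpl-R is its oxaliplatin-resistant derivative, obtained by repeated pulses of the drug and described by its makers as heterogeneous in chromosome number. Cells of both lines, all control samples included, carried the TetOn-E1A construct, in which doxycycline switches on the adenoviral E1A gene. Within each line the groups were untreated control cells, cells given doxycycline at 0.5 µg/mL (E1A), cells given the platinum drug oxaliplatin at 25 µM for 24 h (oxaliplatin, Oxpl), and cells given doxycycline 3 h ahead of oxaliplatin (E1A + oxaliplatin). No sample received doxycycline without carrying the construct, so effects of E1A and of doxycycline cannot be told apart, and the E1A transcript itself was not analysed here.

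In the intestine, the homeobox factors CDX1 and CDX2 specify and maintain the intestinal epithelial programme, with CDX2 as the master regulator, and the zinc finger factor GATA6 and the nuclear receptor HNF4A act with them on enterocyte genes. Keratin 20, galectin 4 (LGALS4) and the cell surface glycoproteins CEACAM5 and CEACAM6 accumulate as colonocytes leave the crypt and mature, while MUC1 is a transmembrane mucin of many epithelia. Colorectal cancers keep parts of this programme to different degrees, and HCT116 is known as a poorly differentiated line.

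CDX2 lies at chr13:27960918-27969315 on the minus strand, GATA6 at chr18:22169589-22202528 on the plus strand, KRT20 at chr17:40875889-40885242 on the minus strand and MUC1 at chr1:155185824-155192916 on the minus strand (GRCh38, GENCODE release 44). The 250 bases before the start of each of these 4 genes are shown because they are the expressed members whose level passed the test in the most comparisons (sequences from RefSeq, GRCh38.p14, read 5′ to 3′ along the gene). Capitals mark matches, on either strand, to the letters TTTAT for the core of CDX sites, AGATAA for a GATA factor site, GTTAAT for HNF1, CAAAGNNCA for HNF4, or TATAAA for the TATA box. The windows lie at chr13:27969316-27969565 for CDX2, chr18:22169339-22169588 for GATA6, chr17:40885243-40885492 for KRT20 and chr1:155192910-155193159 for MUC1.
CDX2: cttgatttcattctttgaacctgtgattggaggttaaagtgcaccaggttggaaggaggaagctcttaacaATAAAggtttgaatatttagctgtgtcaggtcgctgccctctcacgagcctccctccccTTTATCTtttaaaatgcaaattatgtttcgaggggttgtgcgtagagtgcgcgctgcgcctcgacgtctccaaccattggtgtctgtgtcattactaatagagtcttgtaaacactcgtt
GATA6: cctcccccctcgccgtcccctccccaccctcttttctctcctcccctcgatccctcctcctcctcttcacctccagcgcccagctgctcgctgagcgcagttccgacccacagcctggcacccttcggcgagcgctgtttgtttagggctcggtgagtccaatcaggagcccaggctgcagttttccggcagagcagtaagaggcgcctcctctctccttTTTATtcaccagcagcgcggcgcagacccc
KRT20: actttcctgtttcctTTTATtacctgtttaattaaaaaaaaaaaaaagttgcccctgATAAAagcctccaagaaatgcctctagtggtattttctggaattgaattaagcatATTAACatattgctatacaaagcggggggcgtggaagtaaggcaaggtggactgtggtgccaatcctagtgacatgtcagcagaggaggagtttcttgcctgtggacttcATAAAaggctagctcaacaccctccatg
MUC1: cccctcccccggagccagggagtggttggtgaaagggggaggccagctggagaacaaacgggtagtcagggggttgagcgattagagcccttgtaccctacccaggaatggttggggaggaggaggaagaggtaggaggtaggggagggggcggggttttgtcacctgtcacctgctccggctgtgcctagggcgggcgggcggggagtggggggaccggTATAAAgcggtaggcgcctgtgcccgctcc
CDX2 held 2 CDX core matches, 179 to 175 and 120 to 116 bases before the start, and the second overlapped its GATA match at 119 to 114 bases. KRT20 held 3 CDX core matches, the nearest at 28 to 24 bases before the start, and 1 HNF1 motif at 138 to 133 bases. The single CDX core match of GATA6 stood 30 to 26 bases before its start. The single CDX core match of MUC1 was part of its TATA box match at 30 to 25 bases. Of 34943 RefSeq windows of the same length, 32.8% held the CDX core, 9.19% the GATA motif, 6.24% the HNF1 motif, 4.43% the HNF4 motif and 10.8% the TATA box motif, so these matches are descriptions of the windows and not sites of binding.

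Total counts over the genes of the count table ranged from 24838095 to 37927720 per sample. Across genes, the lowest correlation of a sample with another of its group ranged from 0.964 to 0.995 (Pearson r of log2 values), and 17 of 24 samples correlated better with a sample of another group than with 1 of their own. All 3 HCT116 control samples were among the 7 that did not. The lowest values were those of the oxaliplatin groups, among them HCT116 oxpl-R oxaliplatin replicates 1 and 3. The 7 general epithelial markers (EPCAM, CDH1, KRT8, KRT18, KRT19, CLDN4, CLDN7) summed to 5619 to 16970 CPM (counts per 1000000 normalised counts of the genes in the count table) in every sample. Some markers of other cell types were detected, and others were near 0. Of the 8 fibroblast markers, COL1A1 reached 1512 counts in a sample, COL1A2 489 and COL3A1 74, while DCN and LUM reached at most 3. Of the 9 blood cell markers, HBB reached 311 counts, HBA1 205, CD68 181, and LYZ and CSF1R 62 each, while the pan-leukocyte gene PTPRC reached at most 14. Of the 5 endothelial markers ESAM reached 845 counts and CLDN5 at most 2. Their summed levels ranged over all samples from 14.5 to 54.6 CPM for the fibroblast, 2.06 to 25.7 CPM for the blood cell and 5.90 to 28.7 CPM for the endothelial list. Their part in the results was not tested.

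The 9 genes fell into 2 classes of abundance. CDX2, GATA6, HNF4A, KRT20 and MUC1 averaged 10 or more counts per sample. CDX1, CEACAM5, CEACAM6 and LGALS4 did not, with 13, 89, 58 and 183 counts in all 24 samples together. KRT20 reached this limit through its counts in HCT116, with a median of 24.5 there and 5 in HCT116 oxpl-R. LGALS4, left out by it, had medians of 3 and 9.5. Per kilobase of exon, CDX2 was the most abundant, with group means of 7.29 to 19.3 CPM per kb. GATA6 followed with 2.94 to 6.09 CPM per kb, HNF4A with 1.25 to 2.33 and MUC1 with 0.964 to 2.53. KRT20 reached 0.0498 to 0.636 CPM per kb and LGALS4 0.0318 to 0.199, and no group mean of CEACAM5, CEACAM6 or CDX1 passed 0.0911. The lengths are those of all annotated exons of a gene together (10167 bases for HNF4A, 3517 for CDX2), so a gene with many alternative exons is understated. In bulk RNA, fewer cells with a transcript and less transcript per cell cannot be told apart.

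Differences were tested with the quasi-likelihood test of edgeR in a fit of all 24 samples, with p-values adjusted over the 19452 genes and a threshold of 0.05. Between the untreated lines 4 of the 9 genes passed (CDX2, CEACAM5 and MUC1 higher in HCT116 oxpl-R, KRT20 lower), against 14.1% of all genes. Between the E1A groups of the lines 3 of 9 passed (CDX2 and MUC1 higher, KRT20 lower), against 14.4% of all genes. Between the oxaliplatin groups 3 of 9 passed (CDX2 and HNF4A higher, GATA6 lower), against 25.6%, and between the E1A + oxaliplatin groups 1 of 9 passed (KRT20 lower), against 19.2%. The shares in the last pair of comparisons are near those of all genes. Among genes with at least 10 counts on average, 23.6% passed between the untreated lines. The median log2FC there was 0.61 for the 5 members and -0.03 for all 11097 genes. KRT20 is among the 5 through its counts in HCT116, the line where it is higher, so this median depends on the limit. The 9 genes were chosen with earlier results of these data known, so these shares are a description and not independent support.

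Within the lines fewer of the genes moved. Oxaliplatin raised CDX2 and GATA6 in HCT116 cells, 2 of 9 genes against 17.4% of all genes. In HCT116 oxpl-R cells it changed 1 of 9, CEACAM5, against 6.11% of all genes. None of the 9 passed for E1A in HCT116 (0.432% of all genes did), E1A in HCT116 oxpl-R (0.226%), E1A added to oxaliplatin in HCT116 (0.0874%), E1A added to oxaliplatin in HCT116 oxpl-R (1.39%), oxaliplatin added to E1A in HCT116 (8.09%) or oxaliplatin added to E1A in HCT116 oxpl-R (2.8%). At an unadjusted p under 0.05 the edgeR counts for these 6 comparisons were 2, 0, 1, 2, 1 and 0 of the 9 genes, and DESeq2 called 0 of the 9 in each. For E1A in HCT116 the fit of the compared samples only called GATA6, and many more of all genes passed in it. The oxaliplatin and E1A comparisons within a line share their control samples.

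**Figure D1:**
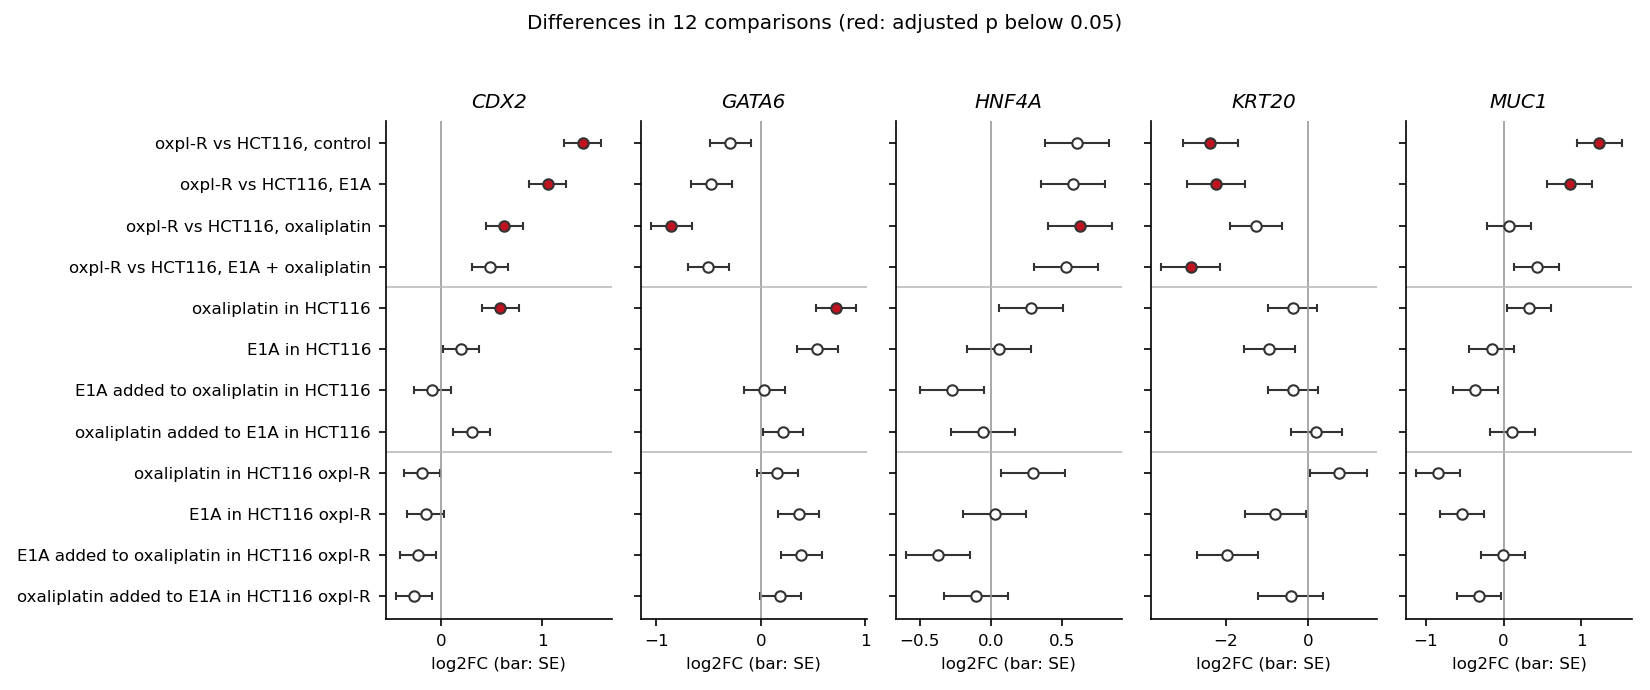
log2FC with SE of the 5 members with at least 10 counts on average (horizontal axes, 1 panel each) in 12 comparisons (rows), from the fit of all 24 samples. Red points passed an adjusted p of 0.05, which CDX2 did in 3 of the 4 line comparisons and KRT20 in 3 of them.

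CDX2 had the lowest adjusted p of the 9 genes between the untreated lines. Untreated HCT116 samples stood at 25.0, 24.7 and 27.2 CPM and untreated HCT116 oxpl-R samples at 73.1, 63.6 and 67.1 CPM. The resistant line was 2.65-fold higher (log2FC 1.41 ± 0.18 SE, adjusted p = 1.27e-06). No alternative processing and no left-out sample ended this call, with adjusted p between 1.17e-14 and 0.000406.

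Under E1A, CDX2 was at 30.2, 29.9 and 27.9 CPM in HCT116 cells and at 69.3, 53.8 and 59.6 CPM in the resistant cells (log2FC 1.05 ± 0.18 SE, adjusted p = 0.00012). Under oxaliplatin the values were 39.63, 35.70 and 40.01 CPM in HCT116 and 78.77, 51.96 and 47.13 CPM in HCT116 oxpl-R (log2FC 0.62 ± 0.18 SE, adjusted p = 0.0094). Replicate 1 of the resistant oxaliplatin group stood well above the others. Without it the adjusted p was 0.129, and without HCT116 oxaliplatin replicate 2 it was 0.071. The call was also lost in the fit of the compared samples only (adjusted p = 0.1477). Limma on the second deposited table did not make it (adjusted p of 0.1325 and 0.1265 with pseudocounts of 1 and 0.1). Under E1A + oxaliplatin, HCT116 samples held 42.9, 30.9 and 34.5 CPM and HCT116 oxpl-R samples 53.1, 47.1 and 51.2 CPM. These samples did not overlap, but the difference missed the threshold (log2FC 0.48 ± 0.18 SE, adjusted p = 0.0605). It passed without HCT116 E1A + oxaliplatin replicate 1 (adjusted p = 0.0213), with DESeq2 (0.0438), with edgeR's expression filter (0.036) and with a replicate block (0.0266).

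Over all treatments the 12 HCT116 oxpl-R samples ranged from 47.1 to 78.8 CPM of CDX2, with a median of 56.7, and the 12 HCT116 samples from 24.7 to 42.9 CPM, with a median of 30.6. In the order of group means, all neighbours among the 4 resistant groups overlapped, and the lowest of them, E1A + oxaliplatin at 50.5 ± 3.03 CPM, stood apart from the highest parental group, oxaliplatin at 38.5 ± 2.39 CPM (SD, n = 3).

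Oxaliplatin raised CDX2 in HCT116 cells from 25.6 ± 1.36 to 38.5 ± 2.39 CPM (SD, n = 3; log2FC 0.58 ± 0.18 SE, adjusted p = 0.0237), with no overlap of samples. In HCT116 oxpl-R cells CDX2 was at 67.9 ± 4.81 CPM without and 59.3 ± 17.1 CPM with oxaliplatin, and the samples overlapped (log2FC -0.20 ± 0.18 SE, adjusted p = 0.705). The difference between these responses was -0.78 ± 0.26 SE on the log2 scale with an adjusted p of 0.0998, against 2.78% of all genes that passed this test. Without HCT116 oxpl-R oxaliplatin replicate 1, the sample with the high value, it was -1.04 (adjusted p = 0.00948), and it also passed with DESeq2 (0.00753), edgeR's expression filter (0.0217) and a replicate block (0.0433). The call in HCT116 itself was lost without HCT116 control replicate 1 (adjusted p = 0.086) or replicate 2 (adjusted p = 0.0952). Limma on the second deposited table did not make it either (adjusted p of 0.1101 and 0.1041 with pseudocounts of 1 and 0.1). Between the same HCT116 groups the summed level of the 5 endothelial markers was 8.87 to 9.81 CPM in the untreated and 23.7 to 25.7 CPM in the treated samples. Nearly all of this sum was the single gene ESAM, at 8.97 ± 0.347 CPM untreated and 24.3 ± 0.954 CPM treated (SD, n = 3). The part of this sum in the results was not tested.

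No change of CDX2 with E1A passed in either line. In HCT116 the log2FC was 0.19 (95% interval -0.16 to 0.55) and in HCT116 oxpl-R -0.16 (95% interval -0.51 to 0.20). When E1A was added to oxaliplatin the log2FC of CDX2 was -0.09 in HCT116 and -0.23 in HCT116 oxpl-R.

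GATA6 followed a different order from CDX2. Its untreated samples held 11.9, 14.4 and 14.8 CPM in HCT116 and 10.95, 11.22 and 11.34 CPM in HCT116 oxpl-R, and the lines did not differ past the threshold (log2FC -0.29, 95% interval -0.68 to 0.09, adjusted p = 0.392). Oxaliplatin brought the HCT116 samples to 23.8, 26.1 and 17.9 CPM, all above the untreated ones (log2FC 0.72 ± 0.19 SE, adjusted p = 0.0094). The HCT116 oxpl-R samples with oxaliplatin held 12.5, 13.0 and 11.9 CPM (log2FC 0.16 ± 0.20 SE, adjusted p = 0.785). The call in HCT116 was lost only without HCT116 control replicate 1 among the samples left out (adjusted p = 0.0718).

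Under oxaliplatin the lines lay apart in GATA6, opposite in direction to CDX2. In that treatment HCT116 oxpl-R was lower than HCT116 (log2FC -0.86 ± 0.20 SE, adjusted p = 0.00111), a call kept in all 13 alternatives and left-out samples tried. The difference in oxaliplatin response between the lines was -0.56 ± 0.28 SE and did not pass (adjusted p = 0.318). Under E1A + oxaliplatin the line difference was -0.50 ± 0.19 SE (adjusted p = 0.0691), with samples of 25.2, 22.1 and 22.1 CPM in HCT116 and 19.1, 14.2 and 15.7 CPM in HCT116 oxpl-R that did not overlap. It passed without HCT116 E1A + oxaliplatin replicate 2 (adjusted p = 0.0495) or replicate 3 (adjusted p = 0.0384). It also passed with RLE normalisation (0.0468), DESeq2 (0.00431), edgeR's expression filter (0.0111) and a replicate block (0.047).

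With E1A alone GATA6 was at 21.3, 19.7 and 18.8 CPM in HCT116, all above the untreated samples, without a call (log2FC 0.54 ± 0.19 SE, adjusted p = 0.448). The fit of the compared samples only did call this difference, so the missing call does not show that GATA6 was unchanged. In HCT116 oxpl-R the E1A samples held 16.4, 12.2 and 14.4 CPM (log2FC 0.36 ± 0.20 SE, adjusted p = 0.952). GATA6 overlaps the antisense gene GATA6-AS1, which had 403 counts in all samples against 11761 for GATA6, and the use of strand in counting is not given in the sources used here.

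HNF4A had a higher mean in the resistant line in all 4 treatments, but passed the test in 1 of them. The untreated samples held 11.3, 14.3 and 12.4 CPM in HCT116 and 19.6, 19.9 and 18.5 CPM in HCT116 oxpl-R, without overlap (log2FC 0.61 ± 0.23 SE, adjusted p = 0.0713). Under E1A the log2FC was 0.58 ± 0.23 SE (adjusted p = 0.0873) and under E1A + oxaliplatin 0.53 ± 0.23 SE (adjusted p = 0.108). Leaving out HCT116 E1A + oxaliplatin replicate 1 brought the last of these to an adjusted p of 0.0275. DESeq2, edgeR's expression filter and the fit of the compared samples only called the untreated difference (adjusted p of 0.0217, 0.0293 and 0.00651, and 0.0436 with a replicate block) and the E1A difference (0.0206, 0.0281 and 0.0302).

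Under oxaliplatin HNF4A held 15.6, 12.4 and 18.2 CPM in HCT116 and 29.8, 20.5 and 20.8 CPM in HCT116 oxpl-R (log2FC 0.62 ± 0.23 SE, adjusted p = 0.0385). This call was lost in 9 of 13 alternatives and left-out samples. The high value was again that of HCT116 oxpl-R oxaliplatin replicate 1, without which the adjusted p was 0.219. Leaving out any of 4 others ended the call too, namely HCT116 oxaliplatin replicate 1 (adjusted p = 0.13) or 2 (0.246), or HCT116 oxpl-R oxaliplatin replicate 2 (0.053) or 3 (0.063). HNF4A passed in none of the 8 comparisons within a line, with log2FC between -0.37 and 0.30. The counts are per gene, so transcripts from the 2 HNF4A starts listed by RefSeq were not separated.

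CDX1, the paralogue of CDX2, was close to absent. It was at 0 counts in 18 of 24 samples and reached 6 counts at most, in HCT116 E1A + oxaliplatin replicate 3. A count of 0 allows up to 3 counts, or about 0.0883 to 0.112 CPM in the groups of HCT116 oxpl-R, counting error only. No fold is given for CDX1, since its group totals of 0 to 8 counts were near or under that limit.

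KRT20, the keratin of mature colonocytes, was low in both lines and lower in the resistant one. Untreated HCT116 samples held 30, 49 and 28 counts (1.00, 1.65 and 0.999 CPM) and untreated HCT116 oxpl-R samples 5, 6 and 8 counts (0.201, 0.207 and 0.288 CPM). The resistant line was 5.25-fold lower (log2FC -2.37 ± 0.66 SE, adjusted p = 0.0128). This call rested on few counts and was lost without HCT116 control replicate 2 (adjusted p = 0.0655) and without HCT116 oxpl-R control replicate 1 (0.0536) or 2 (0.0571). Limma on the second table did not make it either (adjusted p of 0.0637 and 0.0971 with pseudocounts of 1 and 0.1).

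Under E1A, KRT20 had 10, 18 and 24 counts in HCT116 and 1, 3 and 8 in HCT116 oxpl-R (log2FC -2.22 ± 0.70 SE, adjusted p = 0.0289). Leaving out HCT116 E1A replicate 2 (adjusted p = 0.067) or 3 (0.117), or HCT116 oxpl-R E1A replicate 1 (0.122) or 2 (0.103), ended this call. The fit of the compared samples only did not make it (0.0971), nor did limma on the second table (0.0684 and 0.0673 with pseudocounts of 1 and 0.1). Under E1A + oxaliplatin the counts were 25, 16 and 22 in HCT116 and 3, 2 and 5 in HCT116 oxpl-R. This was its firmest line difference (log2FC -2.85 ± 0.71 SE, adjusted p = 0.00396), kept in all 13 alternatives and left-out samples with adjusted p from 0.000997 to 0.0255. Under oxaliplatin alone the samples overlapped, with 8, 31 and 44 counts in HCT116 and 22, 3 and 7 in HCT116 oxpl-R, and the difference did not pass (log2FC -1.26 ± 0.63 SE, adjusted p = 0.157).

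No treatment within a line moved KRT20 past the threshold. The widest was E1A added to oxaliplatin in HCT116 oxpl-R, with a mean of 0.0953 ± 0.0348 CPM against 0.383 ± 0.332 CPM (SD, n = 3) and overlapping samples (log2FC -1.96 ± 0.73 SE, adjusted p = 0.275).

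MUC1 was higher in the resistant line, and only without oxaliplatin did the difference pass. Untreated samples held 2.14, 2.42 and 3.18 CPM in HCT116 and 7.58, 4.56 and 6.05 CPM in HCT116 oxpl-R, a 2.35-fold difference (log2FC 1.23 ± 0.29 SE, adjusted p = 0.0028). That call held with each sample left out in turn, but limma on the second table did not make it (adjusted p of 0.166 and 0.162 with pseudocounts of 1 and 0.1). With E1A the values were 2.01, 3.09 and 1.85 CPM in HCT116 and 4.40, 4.56 and 3.60 CPM in HCT116 oxpl-R (log2FC 0.85 ± 0.29 SE, adjusted p = 0.0434). The E1A call was lost without HCT116 E1A replicate 1 (adjusted p = 0.175) or 3 (0.167), or without HCT116 oxpl-R E1A replicate 1 (0.09) or 2 (0.126). Limma on the second table did not make the E1A call either (0.0559 and 0.0534 with pseudocounts of 1 and 0.1).

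With oxaliplatin the MUC1 samples of the lines overlapped, at 3.44, 3.12 and 3.13 CPM in HCT116 and 2.54, 4.26 and 3.37 CPM in HCT116 oxpl-R (log2FC 0.07, 95% interval -0.49 to 0.63, adjusted p = 1). Within HCT116 oxpl-R the oxaliplatin samples all lay below the untreated ones, without a call in the main fit (log2FC -0.84 ± 0.28 SE, adjusted p = 0.0783). This fall passed with DESeq2 (adjusted p = 0.0356) and with edgeR's expression filter (0.0455). Within HCT116 the log2FC for oxaliplatin was 0.32 ± 0.29 SE (adjusted p = 0.529). The difference between these responses was -1.16 ± 0.40 SE on the log2 scale and did not pass (adjusted p = 0.123). Whether the line difference in MUC1 itself depends on oxaliplatin is thus not shown by these tests. MUC1 is overlapped on its own strand by another annotated gene, ENSG00000273088, so some reads cannot be assigned between them with certainty.

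The other 4 interaction tests gave no call among the 9 genes either. They were the E1A response between the lines (0.0103% of all genes passed), the E1A response under oxaliplatin between the lines (0.134%), and the joint effect of E1A and oxaliplatin in HCT116 (0.0103%) and in HCT116 oxpl-R (0.036%). At an unadjusted p under 0.05, edgeR counted 1, 0, 0 and 1 of the 9 genes in these and 3 of 9 in the oxaliplatin response between the lines. DESeq2 called 2 of 9 in the latter, CDX2 and MUC1, and 0 in the other 4.

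LGALS4, the gene of the gut lectin galectin 4, was detected at a trace. The 12 HCT116 samples held 0 to 18 counts with a median of 3, and the 12 HCT116 oxpl-R samples 2 to 23 counts with a median of 9.5. No comparison of LGALS4 passed. The nearest was under oxaliplatin, with 2, 3 and 1 counts in HCT116 and 8, 17 and 7 in HCT116 oxpl-R (log2FC 2.45, adjusted p = 0.105).

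CEACAM5, which encodes carcinoembryonic antigen, and its paralogue CEACAM6 were also at trace level. CEACAM5 had 0, 0 and 1 counts in untreated HCT116 samples and 20, 1 and 7 in untreated HCT116 oxpl-R samples. The lines passed the test (adjusted p = 0.0333) although the samples overlapped. The 28 counts against 1 are a ratio of 30.05 with a 95% counting interval of 4.97 to 1229 (exact binomial). Without HCT116 oxpl-R control replicate 1 the adjusted p was 0.227, and without HCT116 control replicate 1 or 2 it was 0.126 or 0.132. The call was also lost with a replicate block (0.0602) and with limma on the second table at a pseudocount of 1 (0.0712).

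All 6 samples given oxaliplatin alone, in both lines, had 0 counts of CEACAM5. In HCT116 oxpl-R this was the single member called for oxaliplatin (adjusted p = 0.0217). With the treated samples set at the floor of 3 counts per library, its mean was 3.23-fold lower. That figure leaves out the error of the untreated mean (0.363 ± 0.396 CPM, SD, n = 3). That call was lost without HCT116 oxpl-R control replicate 1 (adjusted p = 0.138), and without oxaliplatin replicate 1 (0.0838), 2 (0.0734) or 3 (0.06). It was also lost in the fit of the compared samples only (0.0864) and with limma on the second table at a pseudocount of 1 (0.0634). Of the 8 fibroblast markers, COL1A2 fell in the same comparison, from 3.14 ± 4.54 to 0.0776 ± 0.0718 CPM (SD, n = 3), while the summed level of the list was 17.4 to 31.2 CPM in the untreated and 14.5 to 31.6 CPM in the treated samples, and its part in the CEACAM5 result was not tested. The 6 samples given E1A with oxaliplatin had 2, 4 and 1 counts in HCT116 and 11, 4 and 8 in HCT116 oxpl-R, and the difference from oxaliplatin alone did not pass in the latter (adjusted p = 0.121).

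CEACAM6 showed another pattern. Its counts were highest in replicate 1 of 3 HCT116 groups, with 7 in E1A, 9 in oxaliplatin and 15 in E1A + oxaliplatin, where the other replicates had 0 to 4. In HCT116 oxpl-R it had 0 to 3 counts in each sample. None of its 12 pair comparisons passed, the nearest being that of the lines under E1A + oxaliplatin (21 counts against 2, adjusted p = 0.129). CEACAM5 and CEACAM6 lie side by side at chr19:41708585-41730433 and chr19:41750977-41772211 on the plus strand, are close in sequence and are both overlapped by the annotated gene ENSG00000267881, so these few counts could have been split between them.

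Other genes of the intestinal programme were set beside the 9 between the untreated lines, where 14.1% of all genes passed. Their lists too were chosen with earlier results of these data known. Of 38 tested absorptive colonocyte and enterocyte genes, 7 were higher and 1 lower, HEPH, in untreated HCT116 oxpl-R. EPS8L3, of the EPS8 family of actin regulators, rose from 0.35 ± 0.186 to 24.9 ± 5.82 CPM. HPGD, which degrades prostaglandins, rose from 1.09 ± 0.299 to 41.3 ± 5.14 CPM, and the transmembrane mucin gene MUC13 from 0.515 ± 0.0792 to 14.1 ± 1.26 CPM (SD, n = 3; adjusted p of 4.24e-13, 1.59e-10 and 8.71e-12).

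Of 25 tested transcription factor genes of the intestine other than the members, 2 were higher and 5 lower between the untreated lines. The epithelial factors EHF (log2FC 2.47 ± 0.28 SE) and KLF5 (1.51 ± 0.21 SE) were higher, as CDX2 was.

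Among 12 goblet cell genes tested, the mucin gene MUC4 was higher (log2FC 2.14 ± 0.37 SE) and KLK1 lower. Of 14 enteroendocrine genes the granin gene SCG2 was lower (log2FC -2.80 ± 0.35 SE). Of 14 crypt stem and progenitor genes 2 were higher, among them the WNT target AXIN2, and 3 lower, among them the WNT inhibitor gene NOTUM (log2FC -2.22 ± 0.26 SE). Of 8 CEACAM genes tested, 2 were higher, CEACAM1 (log2FC 3.74 ± 0.35 SE) and the member CEACAM5. Of 7 gastric and foregut genes 2 were higher, MUC5AC with at most 7 counts and PGC with at most 34 counts in a sample. Of the cell type markers, 0 of 7 general epithelial, 0 of 8 fibroblast, 1 of 9 blood cell (LYZ, higher) and 0 of 5 endothelial genes passed by edgeR, and 2, 0, 2 and 1 had an unadjusted p under 0.05. HEPH, MUC5AC and PGC were named after their values were seen.

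**Figure D2:**
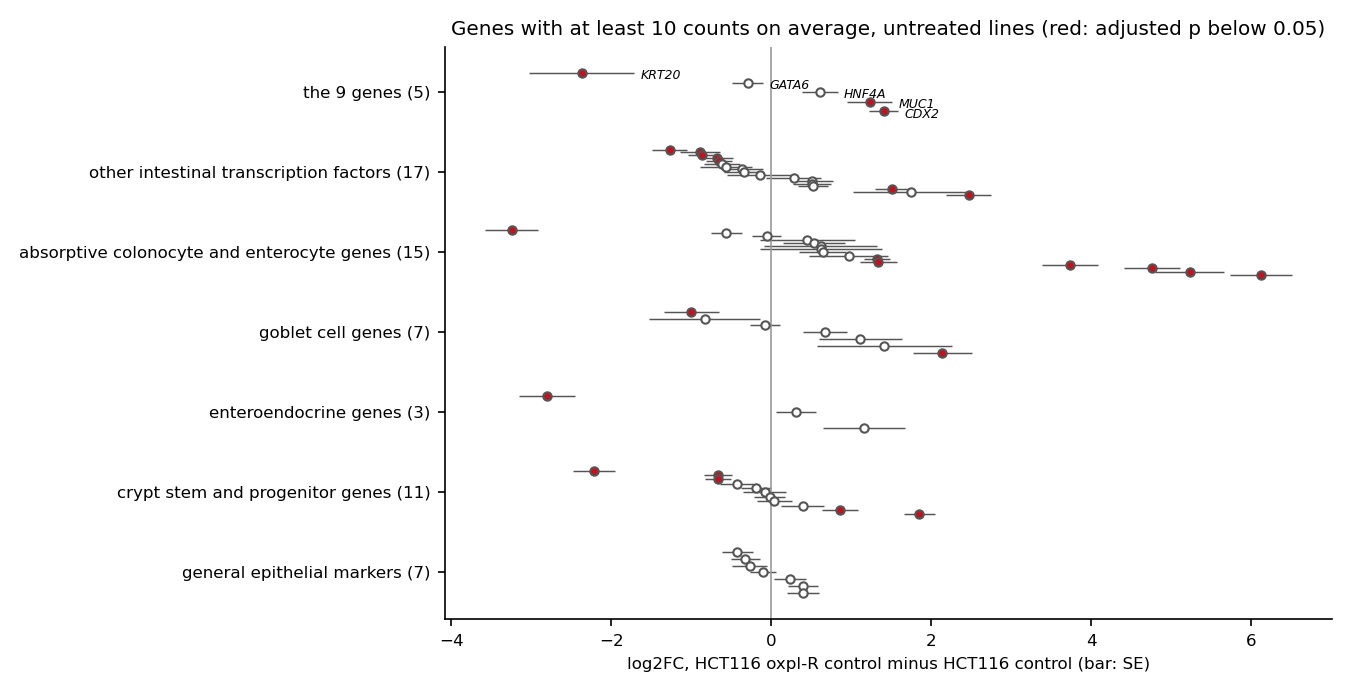
log2FC with SE between the untreated lines (horizontal axis) for the members and 6 wider lists (rows, number of genes in brackets), limited to genes with at least 10 counts on average. Red points passed an adjusted p of 0.05, and the absorptive genes hold the points furthest to the right, above 3 on the log2 scale.

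The wider lists also set the oxaliplatin responses of CDX2 and GATA6 in context. In HCT116 cells oxaliplatin raised 5 and lowered 2 of the 25 other transcription factor genes, where 17.4% of all genes passed. ELF3, an epithelial ETS factor, rose from 127.2 ± 5.61 to 322.6 ± 4.10 CPM and FOXA3 from 13.0 ± 2.45 to 27.9 ± 2.93 CPM, while HNF4G, the paralogue of HNF4A, fell from 3.24 ± 0.616 to 1.02 ± 0.635 CPM (SD, n = 3). It raised 4 and lowered 1 of 38 absorptive genes, with CEACAM1 and MUC13 higher and DPP4 lower, and raised 5 of 7 general epithelial markers, KRT19, KRT8 and KRT18 with log2FC of 0.97, 0.91 and 0.78.

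In HCT116 oxpl-R cells oxaliplatin raised 1 and lowered 1 of the 25 factors, PRDM1 and MYB, a share near the 6.11% of all genes that passed. It raised 4 of 38 absorptive genes, among them CEACAM1 (log2FC 1.89 ± 0.30 SE), and 4 of 7 general epithelial markers, among them KRT19. E1A in HCT116 raised 1 absorptive gene, CA2 (log2FC 0.90 ± 0.16 SE, adjusted p = 0.00344), and no gene of the other factor, goblet or crypt lists passed by edgeR (3, 0 and 7 had an unadjusted p under 0.05). E1A in HCT116 oxpl-R moved no gene of the factor, absorptive, goblet or crypt lists past the threshold (7, 5, 1 and 5 had an unadjusted p under 0.05). Of all genes, 0.432% passed for E1A in HCT116 and 0.226% for E1A in HCT116 oxpl-R. At such shares, lists of this size would hold few or no calls, so these counts do not set the lists apart.

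Genes within 500 kb of the members were compared between the untreated lines, where 23.6% of all genes with at least 10 counts on average passed. CDX2 has 6 neighbours of that abundance, among them PDX1 and FLT3, and 0 of these passed by edgeR (3 had an unadjusted p under 0.05, and the median log2FC was -0.07). On chromosome 13, 8 of 178 such genes were higher in HCT116 oxpl-R and 26 lower, with a median log2FC of -0.18, opposite in sign to CDX2. Near KRT20, 1 of 5 neighbours was higher and 1 lower. The lower one was KRT23, another keratin gene, at -52.4 kb from the KRT20 start along its strand (adjusted p = 1.69e-09), and it was singled out after its value was seen. Near MUC1, 3 of 26 neighbours were higher and 1 lower, and the median was -0.04. Near HNF4A, 2 of 9 were higher and 0 lower, with a median log2FC of 0.34, the same in sign as HNF4A. Near CEACAM5, 4 of 17 were higher and 2 lower.

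The genes whose pattern over the 24 samples was most like that of a member are given as a description. The samples fall into 2 lines, so a shared line difference raises every such value, and values within each line (n = 12) stand beside them. For CDX2 they were C3orf18 (r = 0.953, and 0.917 in HCT116 and 0.697 in HCT116 oxpl-R) and A4GALT (0.949, 0.913 and 0.692). For GATA6 they were CLDN23 (0.935, 0.948 and 0.864), DACT3 (0.932, 0.875 and 0.93) and B4GAT1 (0.929, 0.891 and 0.909), which held their likeness within both lines. For HNF4A the closest were DAP (0.924, 0.78 and 0.859) and LASP1.

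For KRT20 the closest were ARHGAP29 (0.875, 0.796 and 0.566), SCG2 and LONRF2. For MUC1 they were FOSL1 (0.887, 0.875 and 0.808), FGF19 and HOXA13, the last of which had no likeness within HCT116 (r = -0.018) and 0.83 within HCT116 oxpl-R.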

How the data were processed

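RNA-seq libraries of polyadenylated RNA from 24 samples (8 groups of 3 biological replicates) were sequenced as paired ends by the authors, trimmed with Trimmomatic and quantified with Salmon 1.6.0 on GRCh38 with GENCODE release 47. The deposited count table holds Salmon's estimated counts per gene, of which 15.9 to 30.4% per sample were not whole. Its rows run in alphabetical order from A1BG to SETP6, and genes that sort later were not analysed here. Totals and CPM therefore cover these genes only and not the whole library. The second deposited table, described as TPM, does not sum to 1000000 per sample, so it was treated as a score of unstated scaling and, rescaled to that sum, served as an alternative only.

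Estimated counts were rounded and normalised by TMM, and CPM were taken from them. The 19452 genes detected in at least 1 sample were fitted with edgeR 4.0.16 (quasi-likelihood test, 8 group means, no replicate block), in 12 pair comparisons and 5 interactions. The call rule was a Benjamini-Hochberg adjusted p below 0.05. Intervals on few counts cover counting error only. The members and all other gene lists were chosen with earlier results of these data known. The text names the members, up to 3 called genes with the largest log2FC per other list and comparison (at least 10 counts on average), and the 3 genes most like each expressed member by Pearson r of log2(CPM + 1). Some genes that this rule names are not reported here. Positions and exon lengths came from GENCODE release 44. Of the 9 members, 8 had a RefSeq promoter window and CDX1 none. The script was tested on simulated data.

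Alternatives were RLE normalisation, DESeq2 1.42.0, edgeR's expression filter (12009 genes, CDX1 and CEACAM6 not kept), a replicate block, a fit of the compared samples only, limma 3.58.1 on log2 values of the second table with 1 or 0.1 added, and leaving out each of the 24 samples. Same-numbered samples correlated above 0.1 in all 3 pairs, the limit set for pairing, in 2 comparisons, the lines under oxaliplatin (r of 0.141, 0.188 and 0.253) and oxaliplatin added to E1A in HCT116 oxpl-R (0.419, 0.48 and 0.529), and there the block changed no call of a member.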

Additional observations from a re-analysis of the deposited data

How the results depend on the processing

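Under alternative processing, the count of members called changed mostly where values were near the threshold, and no member's difference with an adjusted p below 0.15 reversed direction in a setting run. Some group means of differences further from the threshold turned in the second table: KRT20 in HCT116 was at 1.22 CPM without and 0.934 CPM with oxaliplatin, but at 1.02 and 1.26 per 1000000 in that table. On the second table, limma with a pseudocount of 1 called 1, 1, 1, 2, 1 and 0 of the 9 genes for the lines without treatment, with E1A, with oxaliplatin and with both, and for oxaliplatin in HCT116 and in HCT116 oxpl-R, where the reported counts were 4, 3, 3, 1, 2 and 1. With a pseudocount of 0.1 it called 2, 1 and 1 for the first 3 line comparisons, 1 for oxaliplatin in HCT116, and 1 in place of 0 for E1A added to oxaliplatin in HCT116 oxpl-R. Fitting the compared samples only gave 1 for the lines under oxaliplatin, 1 for E1A in HCT116 (GATA6) in place of 0, and 0 for oxaliplatin in HCT116 oxpl-R; the count over all genes for E1A in HCT116 rose from 84 to 1559. For the lines under E1A + oxaliplatin, RLE gave 2, and DESeq2, the expression filter and the replicate block 3 in place of 1. For oxaliplatin in HCT116 oxpl-R, DESeq2 and the filter gave 2. For the oxaliplatin response between the lines, DESeq2 gave 2, and the filter and the replicate block 1, in place of 0.

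With a replicate block, CEACAM5 between the untreated lines lost its call (adjusted p = 0.0602), while HNF4A there (0.0436), CDX2 (0.0266) and GATA6 (0.047) between the lines under E1A + oxaliplatin, and the CDX2 oxaliplatin response between the lines (0.0433) gained one. The block changed no other call. Same-numbered samples did not meet the pairing limit between the untreated lines or under E1A + oxaliplatin. The response comparison also holds the oxaliplatin groups of both lines, which did meet it. Leaving out 1 sample moved the counts to 2 for the untreated lines, 1 under E1A, 1 under oxaliplatin, 2 to 3 under both, 0 to 1 for oxaliplatin in HCT116, 0 for oxaliplatin in HCT116 oxpl-R and 1 for the oxaliplatin response between the lines, and not past 1.5 times elsewhere. HNF4A between the lines under oxaliplatin lost its call under RLE as well (adjusted p = 0.063). Limma with either pseudocount kept the calls of CDX2 between the lines without treatment and with E1A, of GATA6 between the lines under oxaliplatin and for oxaliplatin in HCT116, and of KRT20 between the lines under E1A + oxaliplatin. The causes were not tested. Low counts limit CDX1, CEACAM5, CEACAM6, LGALS4 and KRT20, whose differences rest on few counts per group.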
